A study of Mus musculus with 33 samples.

Results

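The 10 genes described here encode the classical endoplasmic reticulum (ER) stress response: Hspa5, Hsp90b1, Calr, Pdia4, Sdf2l1, Creld2, Dnajb9, Herpud1, Edem1 and Xbp1. They were taken by symbol and are 10 of the 32245 genes listed in each of 3 tables of normalized counts. RNA came from mouse cardiomyocytes, and the labels name nuclear RNA as the molecule. Each table holds 1 mouse line that carries a cardiomyocyte-specific knockout of Ptpmt1, a mitochondrial phosphatase needed to make cardiolipin. The FST line adds a mutation of Eif2a and gave 12 libraries, 3 for each of the 4 genotypes (control, Eif2a mutant alone, Ptpmt1 knockout alone, and both together, here the double). In the PHT line the second gene is Hri, with 2 control, 2 Hri knockout, 3 Ptpmt1 knockout and 2 double knockout libraries. The labels call the single Hri knockout cardiomyocyte-specific and put no such limit on Hri in the double. The PTGC line adds a knockout of Gcn2 and holds 3 controls and 3 doubles, with neither single knockout, so the effect of each gene cannot be told apart there. The Cre driver, the age of the animals, the nature of the Eif2a mutation and the alleles that the controls carry were not stated in the labels. The labels do not say that libraries came from separate animals, so p-values measure only the spread between these libraries.

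When unfolded proteins build up in the ER, 3 sensors of its membrane start the unfolded protein response. Atf6 and the Ire1-Xbp1 pair turn on chaperones and degradation factors, and Perk phosphorylates the alpha subunit of translation factor eIF2 (gene symbol Eif2s1, called Eif2a in the labels). Hri (gene symbol Eif2ak1) and Gcn2 (Eif2ak4) phosphorylate the same subunit without ER stress, Hri after mitochondrial stress or lack of haem and Gcn2 after amino acid shortage. All of these kinases raise the transcription factor Atf4. Of the 10 genes, Hspa5 (BiP), Hsp90b1 (Grp94) and Calr are the abundant chaperones of the ER. Pdia4 forms disulfide bonds, Sdf2l1 and Dnajb9 assist BiP, and Creld2 is a small ER protein induced by stress. Herpud1 and Edem1 serve ER-associated degradation, which returns misfolded proteins to the cytosol. Xbp1 is the transcription factor that Ire1 activates by splicing its messenger RNA, and a gene count does not tell the spliced form from the unspliced.

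The promoters are shown first as a description, and whether their motifs bear on the values of the genes was not tested. Promoters of all 10 genes were found in RefSeq (GRCm38.p6), and 300 bases of each, from 250 before to 50 after the RefSeq start, were searched on both strands for 4 motifs. The ER stress element ERSE (CCAAT, 9 bases of any kind, then CCACG) is bound by Atf6, and 4 of the 10 promoters hold it, against 0.119% of all 32851 promoters. The matches of those 4 genes are printed 5′ to 3′ on the strand of the gene with 5 flanking bases on each side, and capitals mark the fixed letters of the motif. A match on the other strand reads CGTGG first.
Hspa5 (chr2:34772020-34772048, plus strand of the chromosome): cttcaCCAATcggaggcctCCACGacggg
Hsp90b1, upstream match (chr10:86705633-86705661, minus strand of the chromosome): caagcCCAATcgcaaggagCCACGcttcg
Hsp90b1, match nearer the start (chr10:86705528-86705556, minus strand of the chromosome): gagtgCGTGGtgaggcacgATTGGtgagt
Calr (chr8:84847070-84847098, minus strand of the chromosome): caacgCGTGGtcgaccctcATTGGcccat
Creld2 (chr15:88819515-88819543, plus strand of the chromosome): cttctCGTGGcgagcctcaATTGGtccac
In Hspa5 the motif lies from base -65 to base -47 relative to the start. The GRCm38 annotation begins Hspa5 and Hsp90b1 further upstream than RefSeq does, so these distances hold for the RefSeq start. It also begins Dnajb9 further upstream, and the 250 bases before the RefSeq start of Dnajb9 lie inside the annotated gene. The search of Dnajb9 therefore did not cover bases upstream of its annotated start.

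Herpud1 is the single member with a match to ERSE-II (ATTGG, 1 base of any kind, then CCACG), found in 0.0365% of all promoters. It is also the single member with a match to the response element bound by Atf4 and its C/EBP partners, CARE (TGATGNAA), found in 3.97% of all promoters. The stretch below holds both, with capitals for the fixed letters.
Herpud1 (chr8:94386312-94386392, plus strand of the chromosome): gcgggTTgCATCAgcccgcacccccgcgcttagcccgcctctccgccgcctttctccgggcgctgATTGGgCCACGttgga
The CARE match lies on the minus strand of the gene from base -112 to base -105, and the ERSE-II match on the plus strand from base -52 to base -42. They do not overlap, and the whole stretch lies upstream of the annotated gene (chr8:94386438-94395377, plus strand, GRCm38). For comparison, CARE matches stand in the promoters of Asns, Chac1 and Trib3, known Atf4 targets whose levels are given with the Atf4 arm. The Trib3 match follows the RefSeq start and the other 2 precede it. These were picked as genes with a match. Atf4, Atf5 and Ddit3, which also rose in the PHT Ptpmt1 knockout (adjusted p under 0.05, limma), are not among the risen genes with one.
Asns (chr6:7693220-7693237, minus strand of the chromosome): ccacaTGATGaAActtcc
Chac1 (chr2:119351044-119351061, plus strand of the chromosome): tgccgTTgCATCActcct
Trib3 (chr2:152344034-152344051, minus strand of the chromosome): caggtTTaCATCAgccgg
None of the 10 promoters held the Xbp1 and Atf6 element UPRE (TGACGTGG), which 0.676% of all promoters hold. Pdia4, Sdf2l1, Dnajb9, Edem1 and Xbp1 held no match to any motif searched. Such matches describe letters in this window, not binding.

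Library totals ran from 1887978 to 12583868 reads in FST, from 10739569 to 19405261 in PHT and from 10795644 to 19326112 in PTGC. In FST, double 2 had the fewest reads and Eif2a mutant 1 the fewest genes with reads, 15157. Ptpmt1 fell in every group labelled as its knockout, in PHT from 265 ± 33.6 (SD, n = 2) to 48.8 ± 13.8 (SD, n = 3) (adjusted p = 6.17e-05, limma). Eif2ak1 stood at 548 and 590.4 in the PHT controls, 416 and 389 in the Hri knockouts and 476 and 545 in the doubles, and neither difference passed the test (adjusted p = 0.812 and 0.825, limma). Eif2ak4 did not separate the PTGC groups (log2 fold change -0.11 ± 0.21, SE). These counts cover whole genes and do not show whether a deleted part is missing. All 10 cardiomyocyte markers were detected in every library, with 4.58% to 7.54% of the signal, while the lymphocyte markers held at most 0.00046%. Fibroblast markers held 0.114% to 0.167% of the signal in 11 FST libraries and 0.291% in Ptpmt1 knockout 3. In PHT, sex-linked genes gave a male pattern in 5 of 9 libraries, among them both doubles, both Hri knockouts and neither control.

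Herpud1 was the single member that passed the limma test in any of the 13 comparisons made within the tables. It rose in the Ptpmt1 knockout of the PHT line and was back at the control level where Hri was deleted as well. It was also higher in the PTGC double, where Gcn2 was deleted with Ptpmt1. The other 9 genes did not pass it in any comparison. Levels are normalized counts, tests used limma on log2(value + 1) with all groups of a table in 1 fit, fold changes are on that scale with their SE, and a gene is called where its Benjamini-Hochberg adjusted p over all genes tested is under 0.05.

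**Figure D1:**
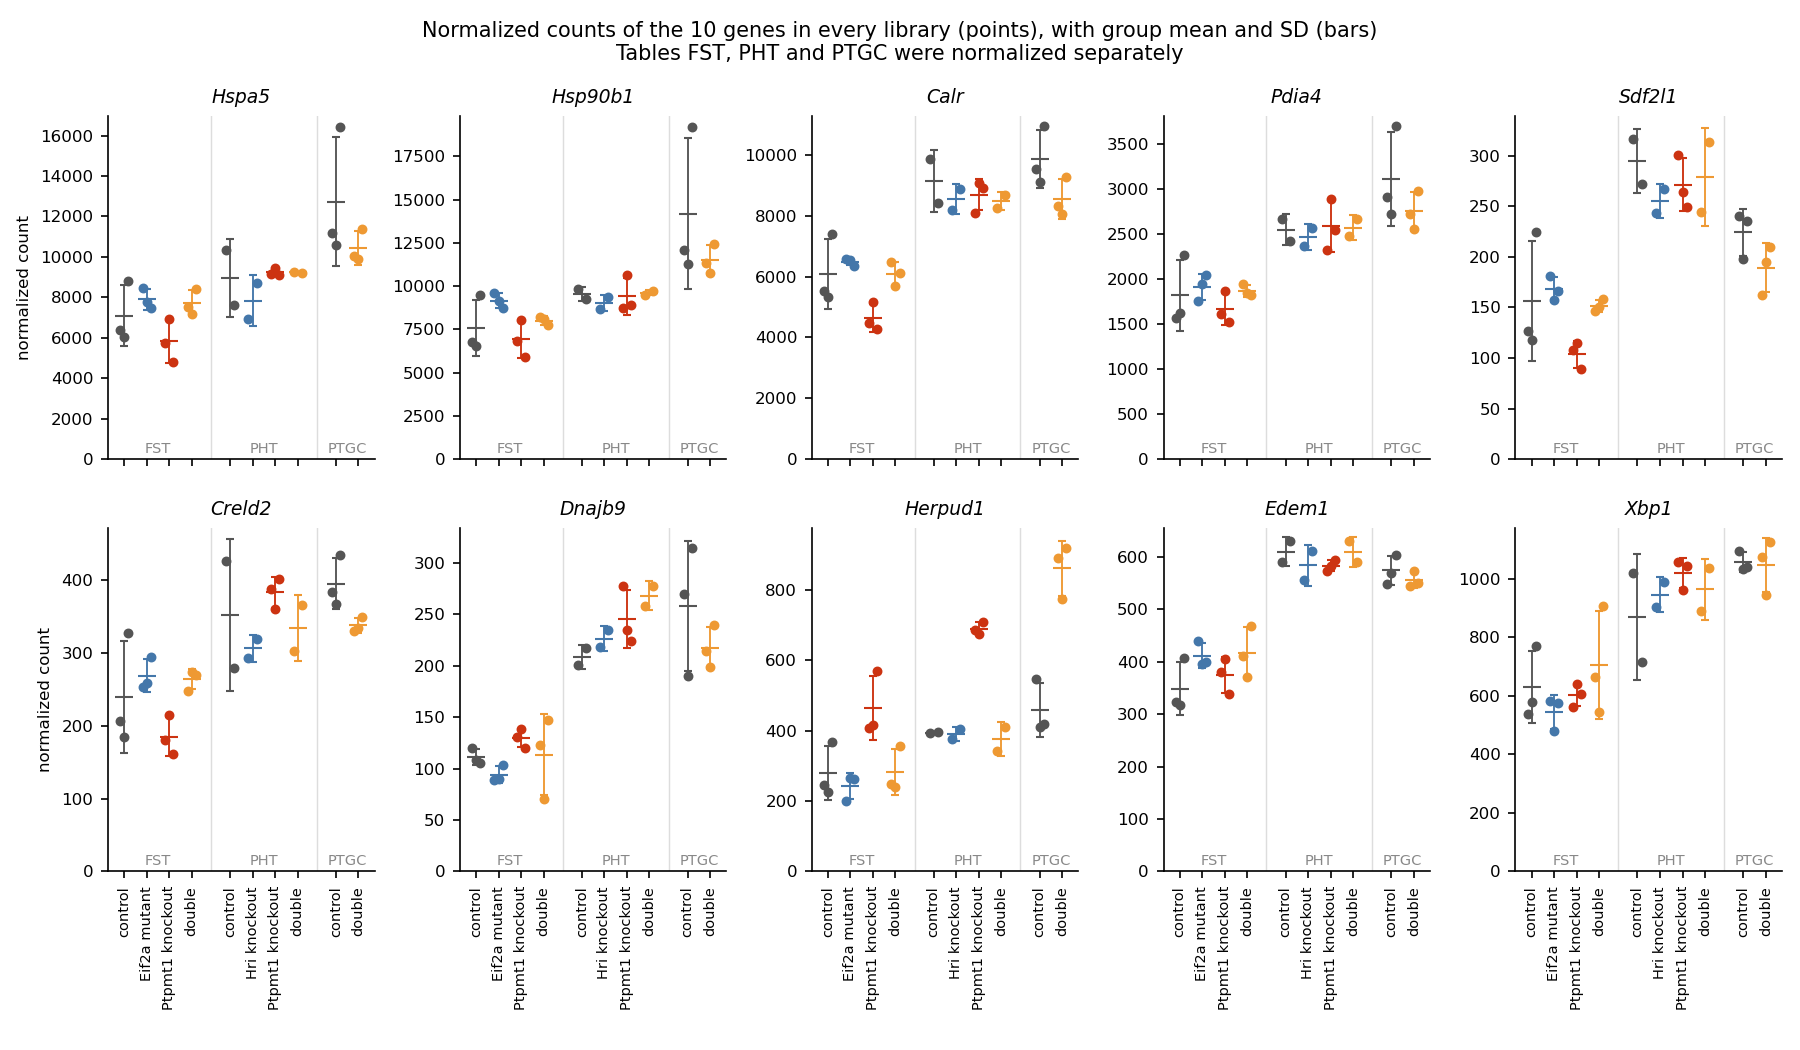
Normalized counts of the 10 genes in all 27 libraries (points; y axis from 0), with group means (horizontal marks) and SD (bars), for control (grey), second single mutant (blue), Ptpmt1 knockout (red) and double (orange). Herpud1 stands at 674 to 709 in the PHT Ptpmt1 knockouts against 394 to 395 in the controls, with no overlap; Hspa5 in the same table spans 9126 to 9431 in the Ptpmt1 knockouts, between its 2 controls. Levels are not compared between tables.

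In PHT, Herpud1 measured 394 and 395 in the controls, 377 and 404 in the Hri knockouts, 685, 674 and 709 in the Ptpmt1 knockouts and 342 and 409 in the doubles. All 3 Ptpmt1 knockouts lay above all 6 other libraries, and those 6 overlapped one another. The ratio of the Ptpmt1 knockout to control was 1.75 with a 95% interval of 1.5 to 2.04 (log2 fold change 0.80 ± 0.10, adjusted p = 0.00144). This was 1 of 10 members called, against 0.301% of all genes tested. At an unadjusted p under 0.05 it was again the single member, against 4.79% of all genes. With a term for the sex pattern the value was 0.81 (adjusted p = 0.0074, limma). Every other PHT group showed a single sex pattern, so that term rests on the Ptpmt1 knockouts, where 1 of 3 was male.

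The PHT double relative to the Ptpmt1 knockout had Herpud1 lower by a log2 fold change of -0.88 ± 0.10 (adjusted p = 0.000548), again 1 of 10 members against 0.327% of all genes called and 8.29% at an unadjusted p under 0.05. This comparison shares the 3 Ptpmt1 knockout libraries with the one before. The doubles also held more Ptpmt1 transcript than those libraries, 77.4 ± 0.957 (SD, n = 2) against 48.8 ± 13.8 (SD, n = 3). The log2 fold change of Ptpmt1 was 0.69 ± 0.22 (unadjusted p = 0.00648, adjusted p = 0.321, limma). The part of this difference in the result was not tested. For Herpud1, the double differed from control by -0.08 ± 0.11, a ratio of 0.949 with a 95% interval of 0.80 to 1.124. In the Hri knockout alone the difference from control was -0.01 ± 0.11. The interaction, which asks whether the Ptpmt1 knockout acts differently on Herpud1 when Hri is deleted, was -0.87 ± 0.16 (adjusted p = 0.0495, 1 of 10 members against 0.12% of all genes called and 4.64% at an unadjusted p under 0.05). That call sits at the threshold and was lost in 14 of 17 alternatives, with edgeR for example at an adjusted p of 0.0717. Erythroid markers moved in the opposite direction across these groups. The 7 measured of 8 held 0.0650% to 0.0844% of the signal in the controls, 0.0127% to 0.0571% in the Ptpmt1 knockouts and 0.0865% to 0.146% in the doubles, none of them at 0. Of these 7, 1 was called higher in the double relative to the Ptpmt1 knockout (median log2 fold change of the 7 1.78, limma). The part of these markers in the result was not tested.

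The PTGC controls gave 547, 411 and 419.7 for Herpud1, against 890.5, 773 and 919.5 for the doubles. The groups did not overlap, as for 8.98% of all genes in this direction, and control 1 was the highest control. Fibroblast markers also separated these groups, with 0.138% to 0.164% of the signal in the controls and 0.165% to 0.189% in the doubles. Mural markers did too, with 0.1702% to 0.184% in the controls and 0.139% to 0.161% in the doubles. The median log2 fold change of the mural markers was 0.20, so their sum and their median went opposite ways. None of these markers was called (8 and 8 tested, limma), and none was at 0. Epicardium markers also separated the groups, with 0.0315% to 0.0335% in the controls and 0.0343% to 0.0354% in the doubles (0 of 6 called). Of 7 erythroid markers tested, 1 was called lower in the doubles (median log2 fold change -0.69, limma). The part of all these markers in the result was not tested. The Herpud1 ratio was 1.88 with a 95% interval of 1.55 to 2.30 (log2 fold change 0.91 ± 0.13, adjusted p = 0.00414, limma), 1 of 10 members against 0.743% of all genes called. At an unadjusted p under 0.05 Herpud1 was the single member too, against 11.5% of all genes. Without double 3 the log2 fold change was 0.86 and the adjusted p 0.0631. Herpud1 was thus high in the double with Gcn2 and at the control level in the double with Hri. Since the lines were normalized apart and PTGC holds no single Ptpmt1 knockout, the difference between these doubles was not tested.

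In FST, Herpud1 measured 245, 226 and 367 in the controls, 199, 265 and 261 in the Eif2a mutants, 407, 416 and 569.8 in the Ptpmt1 knockouts and 249, 239 and 357 in the doubles. The Ptpmt1 knockouts were again above all 9 other libraries, with the highest control, 367, not far below the lowest knockout. Of the other members, Dnajb9 also had Ptpmt1 knockouts above all controls (0.22 ± 0.22), and 2 members in 10 stand against 9.61% of all genes. The change relative to control was close in size to that in PHT, 0.75 ± 0.20, but the replicates spread more and it did not pass (adjusted p = 0.122, limma; 0.0137 by DESeq2; 0.633 in limma with a term for the sex pattern, which was male in 1 of 3 controls and 3 of 3 Ptpmt1 knockouts). The double relative to the Ptpmt1 knockout stood at -0.73 ± 0.20 (adjusted p = 0.103, limma; 0.0376 by DESeq2; 0.196 in limma with the sex term). Against control the double differed by 0.02 ± 0.20, a ratio of 1.01 with a 95% interval of 0.756 to 1.36. The FST interaction for Herpud1 was -0.54 ± 0.28 (adjusted p = 0.712). Leaving out Ptpmt1 knockout 3, the library with the high fibroblast markers and the highest Herpud1, gave 0.59 against control.

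**Figure D2:**
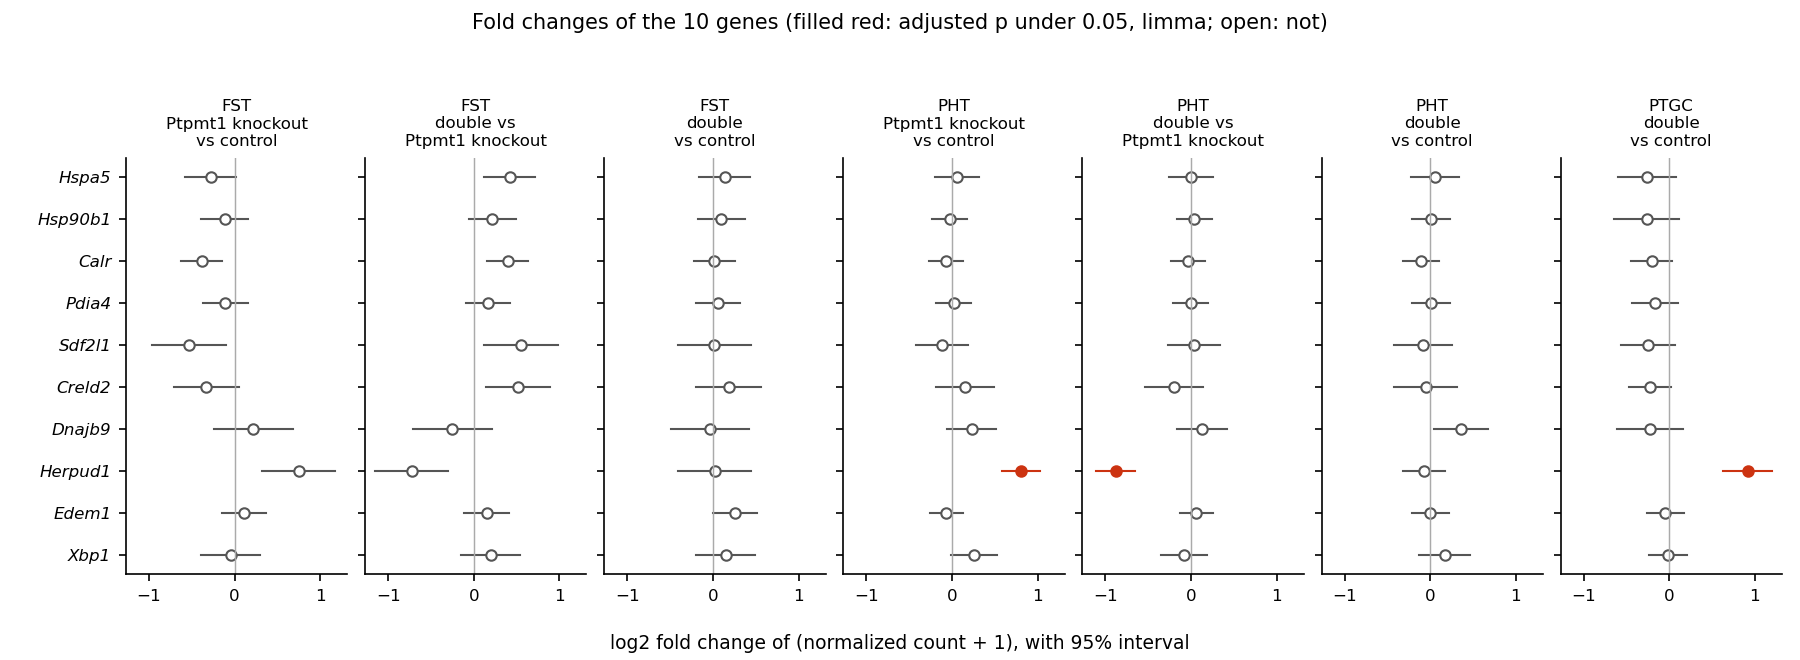
log2 fold changes of (normalized count + 1) for the 10 genes in 7 comparisons (x axis), with 95% intervals as lines. Red filled points passed an adjusted p of 0.05 and are all Herpud1: 0.80 and -0.88 in PHT and 0.91 in PTGC; open points did not pass.

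The large chaperones did not follow Herpud1. In PHT, Hspa5, the chief chaperone of the ER, whose binding keeps the sensors silent, measured 10319 and 7605 in the controls, 6938 and 8721 in the Hri knockouts, 9149.8, 9431 and 9126 in the Ptpmt1 knockouts and 9233 and 9224 in the doubles. The Ptpmt1 knockouts lay between the 2 controls, and the ratio to control was 1.04 with a 95% interval of 0.873 to 1.24. Hsp90b1, which folds a narrower set of secreted and membrane proteins, had a ratio of 0.981 with a 95% interval of 0.852 to 1.13. For Calr, the lectin chaperone that also stores ER calcium, the ratio was 0.952 with a 95% interval of 0.832 to 1.09. A rise of the size seen for Herpud1 lies outside these 3 intervals. Over all 9 genes other than Herpud1, PHT log2 fold changes of the Ptpmt1 knockout ran from -0.12 to 0.25 (median 0.02, median of all genes 0.00), and the bounds of their 95% intervals from ratios of 0.745 to 1.44.

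Among the smaller members in PHT, Xbp1 had control values of 1020.2 and 716, against 1056, 962 and 1042 for the Ptpmt1 knockouts, which overlapped (log2 fold change 0.25 ± 0.13). Dnajb9 measured 200.6 and 217.1 in the controls, 218 and 235 in the Hri knockouts, 278, 235 and 224 in the Ptpmt1 knockouts and 258 and 278 in the doubles. All 7 mutant libraries were above both controls, and in the Ptpmt1 knockout 2 members in 10, Herpud1 and Dnajb9, were higher with groups apart, against 12% of all genes. Relative to control, Dnajb9 stood at 0.23 ± 0.14 in the Ptpmt1 knockout and at 0.36 ± 0.15 in the double. For the double the adjusted p was 0.74 and the unadjusted p 0.0292 (limma). In the double relative to control, 1 member in 10 with groups apart and higher stands against 16.2% of all genes. Creld2, Sdf2l1, Pdia4 and Edem1 had log2 fold changes of 0.15, -0.12, 0.02 and -0.06 in the Ptpmt1 knockout. Edem1, the lectin that hands misfolded glycoproteins to degradation, measured 573, 583 and 594 there against 591 and 629.8 in the controls. Within the Hri knockouts, replicate 2 was the higher for all 10 genes, by 1.07 times for Herpud1 up to 1.26 times for Hspa5.

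In FST, limma called none of the chaperones in the Ptpmt1 knockout, and DESeq2 called Calr, which was lower. Calr measured 5538, 5329 and 7415 in the controls, 6583, 6545 and 6358 in the Eif2a mutants, 4479.6, 5154 and 4266 in the Ptpmt1 knockouts and 6478, 5697 and 6119 in the doubles. All 3 Ptpmt1 knockouts lay below the 9 other libraries. Relative to control its log2 fold change was -0.38 ± 0.11, with an adjusted p of 0.161 in limma and 0.0226 in DESeq2. In the double relative to the Ptpmt1 knockout it was 0.40 ± 0.11, with 0.11 in limma and 0.0316 in DESeq2.

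Sdf2l1 measured 127, 118 and 224 in the FST controls, 181, 157 and 166 in the Eif2a mutants, 107, 115 and 89.0 in the Ptpmt1 knockouts and 146, 150.3 and 158 in the doubles. The Ptpmt1 knockouts were the 3 lowest libraries, just under 2 of the controls, and control 3 was the highest of all. Calr and Sdf2l1 were the 2 members lower with groups apart, against 9.48% of all genes. The log2 fold change was -0.53 ± 0.20 (adjusted p = 0.255). Hspa5 measured 6399.6, 6055 and 8808 in the controls, 5729, 6929 and 4812 in the Ptpmt1 knockouts and 7543, 7169 and 8425 in the doubles. The knockouts overlapped the controls and were all under the doubles. Creld2 had the same order, with 207, 185 and 328 in the controls, 181, 215 and 161 in the Ptpmt1 knockouts and 248, 274 and 270.5 in the doubles.

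Counted over the set, 0 of 10 members were called in the FST Ptpmt1 knockout, where 0.504% of all genes were called by limma. DESeq2 called 2 members, Herpud1 and Calr, and edgeR 0. At an unadjusted p under 0.05 there were 3, Herpud1, Calr and Sdf2l1, against 13.4% of all genes. In the double relative to the Ptpmt1 knockout 0 were called (0.878% of all genes), 2 by DESeq2 and 0 by edgeR. There 5 had an unadjusted p under 0.05 against 13.8% of all genes, with Hspa5 (0.42 ± 0.14), Calr, Sdf2l1 (0.55 ± 0.20) and Creld2 (0.52 ± 0.18) higher and Herpud1 lower. These are also the 4 genes of the set with groups apart and higher, against 8.95% of all genes, and Herpud1 is the single one lower, against 8.87%. The 2 comparisons share the Ptpmt1 knockout libraries.

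The FST difference between the Ptpmt1 knockout and control leaned on single libraries. Control 3 was the highest of its group for 9 of 10 members, by a median of 1.42 times the mean of the other 2 controls and by 1.83 times for Sdf2l1. Without it, the log2 fold change of the Ptpmt1 knockout was -0.23 for Calr, -0.24 for Sdf2l1, -0.11 for Hspa5 and -0.08 for Creld2. Over the 9 genes other than Herpud1, 7 were negative with all libraries (median -0.12), and without control 3 the balance turned, with 5 of 9 positive (median 0.05). In the double relative to the Ptpmt1 knockout, leaving control 3 out changes only the estimate of the spread, and Calr then passed (adjusted p = 0.0272, limma). Over 22 alternatives this comparison gave 0.29 to 0.55 for Hspa5 and 0.34 to 0.48 for Calr. The range was 0.45 to 0.63 for Sdf2l1 and 0.42 to 0.63 for Creld2. Dnajb9 ran from -0.47 to 0.06 and Xbp1 from -0.00039 to 0.37. Ptpmt1 knockout 3 was the lowest of its group for 8 members and highest for Herpud1, and its fibroblast markers held 0.291% of the signal against 0.148% and 0.1499% in the other 2. Its macrophage markers, at 0.00932%, and erythroid markers, at 0.0416%, were also the highest of the 12 FST libraries. Mural cell markers were highest in control 3 (0.197%, against 0.126% and 0.122% in controls 1 and 2), stood at 0.0952%, 0.163% and 0.0935% in the 3 Ptpmt1 knockouts and at 0.151% to 0.195% in the doubles. Of the 7 mural markers tested, 1 was called lower in the Ptpmt1 knockout. With the library Ptpmt1 knockout 3 left out, Hspa5 stood at -0.15 relative to control and Calr at -0.33. The part of other cell types in this was not tested, and in bulk RNA fewer cells of a type and less RNA per cell cannot be told apart.

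The remaining FST members moved little. Hsp90b1 and Pdia4 had log2 fold changes of -0.12 and -0.11 in the Ptpmt1 knockout. The annotation places 10.3% of the exon bases of Hsp90b1 under an opposite-strand pseudogene, 1810014B01Rik, and whether the counting used strand is not given in the sources used here. Xbp1 measured 562, 639 and 605 in the Ptpmt1 knockouts, within the range of the controls, 539, 579 and 769. Dnajb9 in the doubles spread from 70.7 to 148, with the lowest value in double 2, the shallow library. Edem1 was 0.11 ± 0.12 with Ptpmt1 deleted alone and 0.26 ± 0.12 in the double, each relative to control (adjusted p = 0.488, limma).

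In PTGC all 9 genes other than Herpud1 had negative log2 fold changes in the double, from -0.26 to -0.01 (median -0.22, median of all genes 0.00), and none was called. For Hspa5 the controls gave 11183, 10597 and 16408, against 10053, 9881 and 11400.3 for the doubles. For Hsp90b1 the controls gave 12084, 11287 and 19198, against 11313, 10775 and 12430.4. The groups overlap for both genes, with control 3 far above all other libraries. That library was the highest control for 7 of 10 members, at 1.64 times the mean of the others for Hsp90b1. Without it the median over the 9 genes was -0.06, and Hspa5 and Hsp90b1 stood at -0.06 and -0.02. Without control 2 the median was -0.27, with 6 of the 9 at an unadjusted p under 0.05 and the lowest adjusted p at 0.101 (limma). Creld2 was the single gene of the 9 with groups apart (controls 383, 368 and 435, doubles 330.0, 335 and 350.2), against 9.05% of all genes lower with groups apart. Calr, Sdf2l1, Pdia4 and Dnajb9 stood at -0.21, -0.25, -0.17 and -0.22, while Edem1 at -0.05 and Xbp1 at -0.01 were closest to 0.

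In the 7 comparisons not yet counted, limma, edgeR and DESeq2 each called 0 of 10 members. Limma called 0.036% of all genes in the Eif2a mutant relative to control, 0.144% in the FST double relative to control, 0.0072% in the FST double relative to the Eif2a mutant and 0.0216% in the FST interaction. The PHT shares were 0.02% for the Hri knockout, 0.0267% for the double relative to control and 0.02% for the double relative to the Hri knockout. With so few genes called, a count of 0 among 10 carries little. At an unadjusted p under 0.05 there was 1 member in each of 3 of them: Hsp90b1 in the Eif2a mutant (0.29 ± 0.13, against 7.97% of all genes), Edem1 in the FST double relative to control (against 10.1%) and Dnajb9 in the PHT double relative to control (against 6.58%). The other 4 held 0 such members, where 8.14% (FST double relative to Eif2a mutant), 7.06% (FST interaction), 3.24% (Hri knockout) and 5.83% (PHT double relative to Hri knockout) of all genes were under 0.05. FST control 3 mattered here too. Without it, the 9 genes other than Herpud1 had 7 instead of 1 at an unadjusted p under 0.05 in the Eif2a mutant (median 0.34 instead of 0.16) and 5 instead of 1 in the FST double relative to control (median 0.30 instead of 0.10), with 0 called (lowest adjusted p 0.158 and 0.286, limma).

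Per kilobase of annotated exon, the order of the control levels was much alike in the 3 tables. In PHT it ran from Calr at 3177 ± 356 (SD, n = 2) normalized counts per kilobase, Hsp90b1 at 2372 ± 99.1 and Hspa5 at 2119 ± 454 through Pdia4 at 1063 ± 71.9 to Xbp1 at 267 ± 66.3, Sdf2l1 at 266 ± 28.4, Creld2 at 258 ± 76.4, Herpud1 at 169.0 ± 0.318, Edem1 at 94.6 ± 4.29 and Dnajb9 at 81.9 ± 4.56. Hsp90b1 and Hspa5 did not differ beyond their spread, nor did Xbp1, Sdf2l1 and Creld2. Herpud1 is thus among the less abundant members, and the 3 most abundant chaperones were among those that did not pass. In PTGC Hsp90b1 (3519 ± 1080) stood above Calr (3427 ± 336), within the spread of both.

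In limma, no list of other ER genes held a called gene, while the Atf4 arm held many. The lists were drawn up from textbook knowledge, with earlier results of these data known. Of 20 other ER chaperones and folding enzymes, 0 were called by limma in any of the 13 comparisons (edgeR called 0 and DESeq2 up to 2 in a comparison, while limma without FST Ptpmt1 knockout 3 called 3 in the FST Ptpmt1 knockout), and their median log2 fold change was 0.04 in the PHT Ptpmt1 knockout, -0.05 in the FST one and -0.03 in the PTGC double. At an unadjusted p under 0.05 these 3 comparisons held 0, 6 and 2 of them, against 4.79%, 13.4% and 11.5% of all genes. The same shares apply, in the same order, to such counts of the lists that follow. The 18 genes of ER-associated degradation, the group Herpud1 belongs to (17 tested in FST), also gave 0 calls in limma, edgeR and DESeq2 (0, 1 and 0 at an unadjusted p under 0.05), with medians of 0.06, 0.09 and -0.03. ER import and transport (22 genes) gave medians of 0.06, 0.11 and -0.07 and 0 calls in limma (0, 2 and 2 at an unadjusted p under 0.05). Of these, 17, 18 and 9 were above 0, and 1 was called without FST Ptpmt1 knockout 3 in the FST comparison and 1 without PTGC control 2 in the PTGC one. The 13 sensors and transcription factors, among them Atf6, Ern1 (Ire1) and Eif2ak3 (Perk), also gave 0 (0, 4 and 4 at an unadjusted p under 0.05, with 1 called by DESeq2 in FST and 2 in PTGC). In the PTGC double 12 of these 13 were above 0 with a median of 0.19, where the 9 members other than Herpud1 were all below 0. The cytosolic heat shock genes, which answer to unfolded proteins outside the ER, gave 0 calls in limma as well (12 tested in PHT, 10 in FST and 10 in PTGC, with 1, 3 and 0 at an unadjusted p under 0.05). DESeq2 called 1 of them in the FST Ptpmt1 knockout and 1 in the PHT double relative to each single knockout, and limma called 2 in the FST Ptpmt1 knockout without its replicate 3.

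Of the 15 genes of the Atf4 arm, all tested in PHT and PTGC and 14 in FST, 8 rose in the PHT Ptpmt1 knockout (median 0.87), 6 in the FST one (median 1.04) and 12 in the PTGC double (median 1.85). Of all genes, 0.301%, 0.504% and 0.743% were called in these comparisons, in either direction. In the doubles relative to the Ptpmt1 knockout, 6 fell in PHT (median -1.01) and 6 in FST (median -0.94), where 0.327% and 0.878% of all genes were called. Asns, which makes asparagine, went from 306 ± 19.5 (SD, n = 2) to 1366 ± 259 (SD, n = 3) in PHT and stood at 267 ± 62.1 (SD, n = 2) in the double. Trib3, a pseudokinase, went from 29.2 ± 16.0 (SD, n = 2) to 341 ± 92.4 (SD, n = 3) and stood at 34.9 ± 23.4 (SD, n = 2). Chac1, which degrades glutathione, stood at 110.9 to 221 in the PHT Ptpmt1 knockouts against 0.942 to 2.39 in the controls, 1 and 2 reads, and 0 to 1.08 in the doubles. Atf4 itself went from 1118 ± 1.80 (SD, n = 2) to 2058 ± 370.0 (SD, n = 3) and stood at 1119.5 ± 97.6 (SD, n = 2) in the double. Without PHT control 2 the 8 calls became 3, and without any 1 of the FST controls the 6 calls became 3. Without FST double 1, or without double 3, the 6 genes that fell in FST became 2, and with a term for the sex pattern both counts of genes that fell became 3. With edgeR no count of this list moved by more than 1.5 times.

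**Figure D3:**
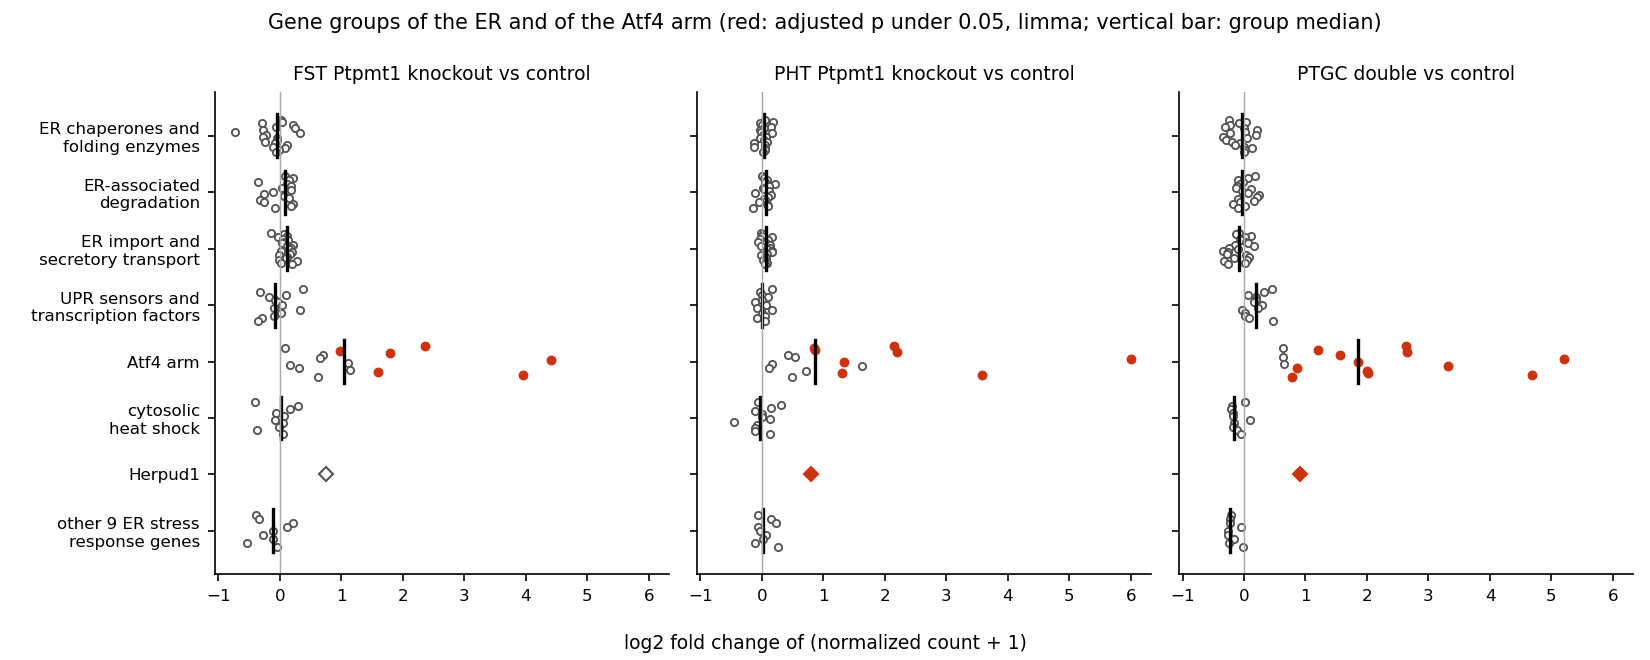
log2 fold changes of (normalized count + 1) (x axis) of each tested gene of 6 lists, of Herpud1 (diamond) and of the other 9 ER stress response genes, in 3 comparisons; red points passed an adjusted p of 0.05 and vertical bars are list medians. The Atf4 arm holds 6, 8 and 12 red points, the ER lists none, and Herpud1 sits to the right of the ER lists' medians at 0.75, 0.80 and 0.91.

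As a description over 27 libraries, after the mean of each table was subtracted from log2(value + 1), the genes most correlated with Hspa5 among 13768 were Manf (r = 0.93), Hsp90b1 (0.87), Calr (0.87), Creld2 (0.85) and Pdia6 (0.83). Pdia4 (0.81) and Sdf2l1 (0.79) ranked 6 and 8, Edem1 (0.62) 95. Xbp1 (0.39) and Dnajb9 (0.11) were only loosely alike, and Herpud1 had r = -0.31 with Hspa5. The genes most like Herpud1 were Phgdh (0.93), Gpt2 (0.93), Asns (0.92), Sars (0.92) and Aars (0.91), enzymes of serine, alanine and asparagine synthesis and 2 tRNA synthetases. The best of the other members was Xbp1 at 0.34. These libraries share tables and groups, and the correlations reflect differences between groups as well as within them.

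**Figure D4:**
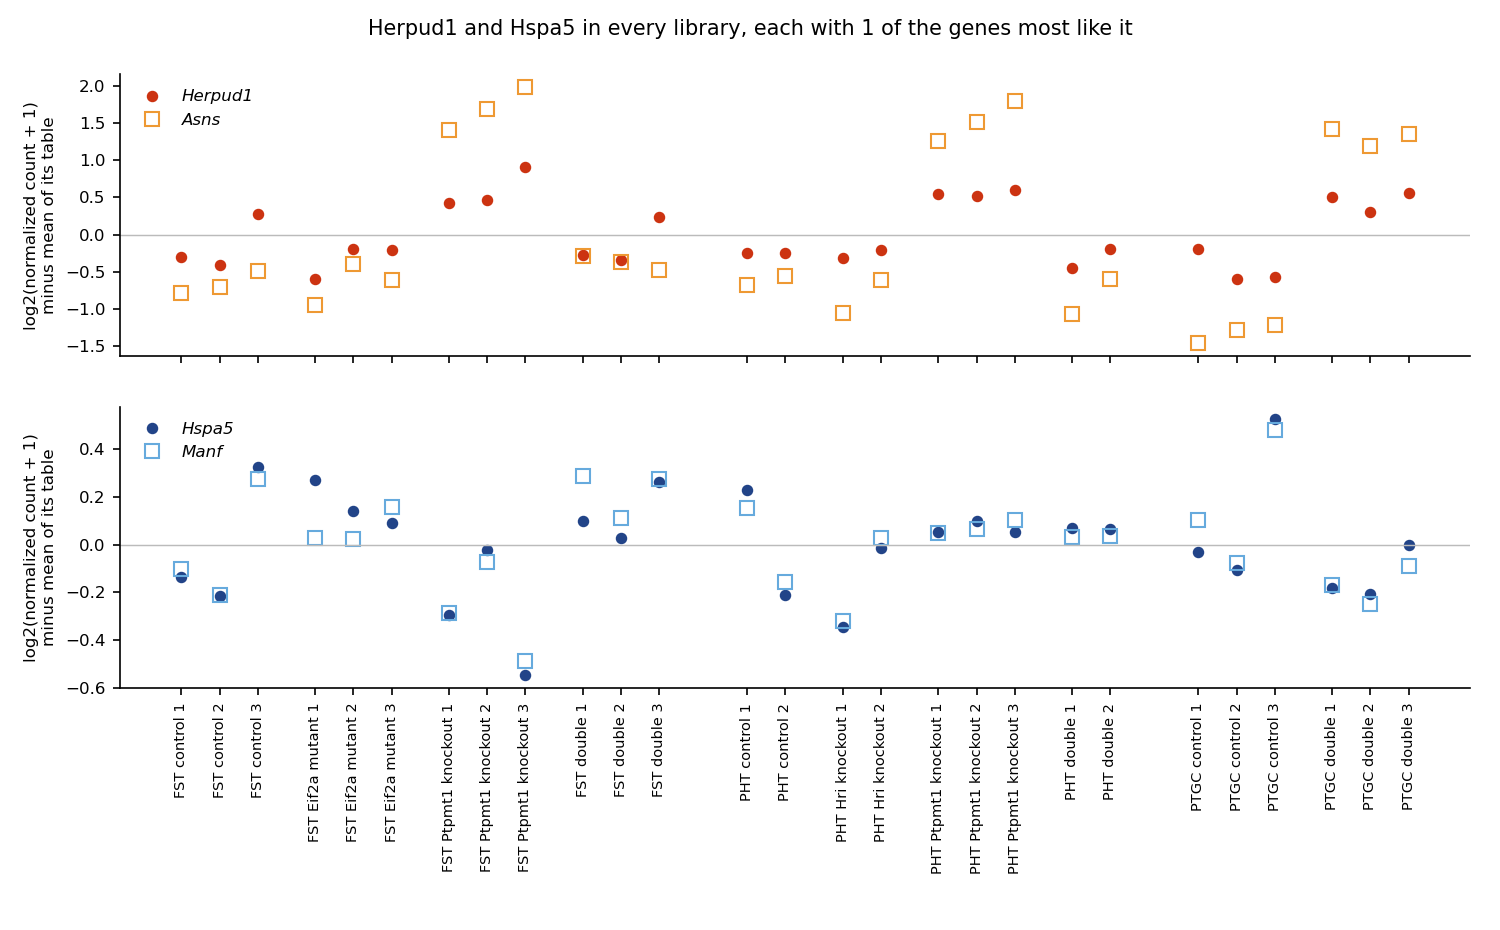
log2(normalized count + 1) minus the mean of its table (y axis) for Herpud1 with Asns (top) and Hspa5 with Manf (bottom) in the 27 libraries (x axis). Herpud1 and Asns are both high in the FST and PHT Ptpmt1 knockouts and in the PTGC doubles, while Hspa5 and Manf are highest in PTGC control 3 and lowest in FST Ptpmt1 knockout 3.

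The calls were also set beside the promoter matches. Of 305 tested genes with CARE in the promoter, 12 were higher in the PHT Ptpmt1 knockout (3.93%, against 0.284% of tested genes with a RefSeq promoter), Herpud1 among them, and in the PTGC double 21 of 294 (7.14%, against 0.75%). The FST Ptpmt1 knockout had 10 of 287 (3.48%, against 0.329%). Of the genes with ERSE in the promoter, 18 in FST, 20 in PHT and 19 in PTGC were tested, and limma called 0 in any comparison. Among so few genes this is near the background share, since 0.75% of tested genes or fewer were higher in each comparison. DESeq2 called Calr, which holds the motif, in both FST comparisons given with it. Most genes with CARE were not called, and whether the match bears on the calls was not tested. Of the 9 or 10 tested genes with ERSE-II, Herpud1 was the single one called, in PHT and PTGC.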

How the data were processed

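The members and gene lists were chosen with earlier results of these data known. The deposited values, 1 table per line, are a signal: gene counts that the authors divided by 1 size factor per library, as the values themselves show. STAR 2.5.3a, DESeq2 1.12.4 and mm10 are named, without roles, per the submitters' processing notes. Which counter, annotation and strand setting were used is not stated in the labels. Of 33 samples, 27 were used, and 6 of a line with Ptpmt1 alone were not analysed here. Dividing each column by its smallest step gave whole reads for 100% of values (tolerance 0.1). The tables hold 26 symbols that a spreadsheet turned into dates.

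In each table, limma 3.58.1 (R 4.3.3; trended variance) was fitted to log2(value + 1) over all groups, for genes that reached 10 in a number of libraries no smaller than the smallest group. This left 13896 genes (FST), 14965 (PHT) and 14128 (PTGC), all 10 members included. P-values were adjusted by Benjamini-Hochberg over those genes. Intervals are 95% intervals from the same fit. Alternatives were pseudocounts of 0.5 and 8, other filters, TMM scaling, edgeR 4.0.16 and DESeq2 1.42.0 on the recovered reads, a sex term, 2 groups alone and leaving out libraries. Scripts were tested on simulated data. Exon lengths come from the GRCm38 annotation. The text names all 10 members, the targeted genes, called genes of each list (up to 4 by p) and the 5 genes most correlated with Hspa5 and with Herpud1.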

Additional observations from a re-analysis of the deposited data

Results flagged for a closer look

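One result met a rule for a second look. Herpud1 responded to the Ptpmt1 knockout differently in PHT libraries with and without Hri: the interaction was -0.87 on the log2 scale, with the change of 0.80 seen with Hri intact nearly gone when Hri was deleted. The limma adjusted p was 0.0495, so the call is at the threshold. It was lost in most alternatives, among them edgeR, TMM scaling and the sex term. Neither control had a male pattern, while all libraries with Hri deleted had one. The PHT controls and double knockouts are 2 libraries each.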

How the results depend on the processing

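No paired analysis was possible because the labels give the libraries no numbers shared between groups, and the replicate numbers used here follow accession order. Of the fold changes of the 10 genes under the alternatives, 2358 kept direction and call, 137 changed sign while not called, 5 became called and 15 lost the call. No called value changed sign. Herpud1 stayed called under all alternatives in the PHT Ptpmt1 knockout and in the PHT double relative to it. Its PHT interaction gave 0 called members instead of 1 with a pseudocount of 0.5, without a filter, with a value of 10 or more in every library, with TMM scaling, with edgeR and with the sex term. Leaving out 1 library gave 0 to 1. It kept the call with a pseudocount of 8 (adjusted p = 0.0423), with DESeq2 (0.00488) and without double 2 (0.0166, limma). In the PTGC double, leaving out 1 library gave 0 to 1 called members, 0 without double 3. With DESeq2, 2 members were called instead of 0 in the FST Ptpmt1 knockout and 2 in the FST double relative to it. Leaving out 1 library gave 0 to 1 in that last comparison, the 1 being Calr without control 3. Counts over all genes moved far more: the FST Ptpmt1 knockout had 70 called genes and 21 to 857 where the count moved, the FST double relative to it 122 and 29 to 327, the PHT Ptpmt1 knockout 45 and 21 to 69, the PHT double relative to it 49 and 29 to 105, the PHT interaction 18 and 2 to 38, and the PTGC double 105 and 57 to 536. The smaller counts moved too, the Eif2a mutant from 5 to 2 to 42, the FST double relative to control from 20 to 3 to 93, the FST double relative to the Eif2a mutant from 1 to 2 to 20, the FST interaction from 3 to 5 to 35, the Hri knockout from 3 to 0 to 19, the PHT double relative to control from 4 to 0 to 13 and relative to the Hri knockout from 3 to 0 to 10. The Atf4 arm in the FST interaction went from 2 called to 7 with DESeq2, and in the PHT interaction from 3 to 5 to 6. The causes were not tested. Where leaving out a library left 1 in a PHT group, that library was taken to vary like the others.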
